A study of Caenorhabditis elegans with 4 samples.

Results

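ZHP-3 peaks on the X chromosome of Caenorhabditis elegans were taken as every entry of the combined peak list of the series that is placed on X, in WormBase WS220 coordinates. They numbered 1738 of the 11843 peaks of that list. The list of ChIP replicate 1 held 842 X peaks of 5981, and the list of ChIP replicate 2 held 1091 of 7001. The peaks came from chromatin immunoprecipitation and sequencing (ChIP-seq) of formaldehyde-fixed worms, with a rabbit polyclonal antibody against ZHP-3 that was affinity-purified, in 2 ChIP libraries, beside 2 libraries of input DNA whose reads were not analysed here. All 4 libraries were of hermaphrodites of strain fem-2(b245), genotype fem-2(b245)III, raised at 20 °C, so that no group without the fem-2 mutation was compared. The stage is labelled as young adult with a germline, while the growth protocol describes gravid adults collected by sucrose floatation. The extract was of whole worms, in which germline and somatic nuclei cannot be told apart. Nothing in the labels says that the replicates came from separate cultures, so the spread between them may be technical. The peak lists hold no read counts, and the depth behind each peak is unknown.

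ZHP-3 is a RING-finger protein that associates with the synaptonemal complex in meiotic prophase and is needed for crossovers in C. elegans. The gene fem-2 acts in sex determination and is needed for male fates, sperm included. Hermaphrodites carry a pair of X chromosomes, which synapse and cross over like the autosomes. The X chromosome differs from them in that most of it is kept transcriptionally quiet in germ cells for much of meiosis, and in that its recombination rate changes less between arms and centre. Its pairing centre, the region through which homologous X chromosomes find each other, lies towards the left end. In somatic cells of hermaphrodites the dosage compensation complex binds X and lowers its transcription.

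Peaks on X were sparse, and they were spaced more widely than on any autosome. The combined list held 98.1 X peaks per Mb, the lowest of the 6 chromosomes, which covered 4.34% of the chromosome, and the lists of replicates 1 and 2 covered 2.62% and 3.53%. In replicate 1 X was again the sparsest, at 47.5 peaks per Mb, while in replicate 2 its 61.6 lay above the 58.4 of chromosome V. The median gap from one X peak to the next was 4249 bp in the combined list (quartiles 861 and 13215 bp), 11184 bp in replicate 1 and 7950.5 bp in replicate 2. The autosomal medians ran from 2659.5 bp on III to 3547 bp on V in the combined list, from 6551.5 to 8721 bp in replicate 1 and from 5268.5 to 7084 bp in replicate 2. The X median thus lay above all 5 autosomes in each list. With whole chromosomes as the units the exact permutation p was 0.167 in the combined list and in replicate 1, the smallest that 6 chromosomes can give, and 0.333 in replicate 2. Over the 43 comparisons of X with the autosomes a p of 0.167 became 0.326 after Benjamini-Hochberg adjustment, so none passed a threshold of 0.05 and this design could not let one pass. Close neighbours were still common on X. Gaps under 1000 bp made up 27.4% of the combined gaps (476 of 1737, Wilson 95% interval 25.4 to 29.5), where 29.3% of gaps on the 6 chromosomes were as short, and chromosome IV had the same rounded share as X.

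Along X the number of combined peaks in the 17 full windows of 1 Mb ran from 73 to 128, with a median of 94. The window from 4 to 5 Mb held the most and the window from 9 to 10 Mb the fewest. Replicate 1 ran from 25 peaks (3 to 4 Mb) over a median of 46 to 67 (14 to 15 Mb). Replicate 2 ran from 48 peaks (2 to 3 Mb, and again from 7 to 8 Mb) over a median of 61 to 86 (4 to 5 Mb). Replicate 2 had more peaks than replicate 1 in 18 of 18 windows, the shorter last window included. The excess was uneven: from 3 to 4 Mb replicate 2 had 50 peaks against 25, and from 14 to 15 Mb it had 69 against 67. Window counts of the replicates went together over 17 windows (Pearson's r 0.70, Spearman's rho 0.81), which is given as a description, since neighbouring windows share a chromosome and each series of counts comes from 1 library.

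**Figure D1:**
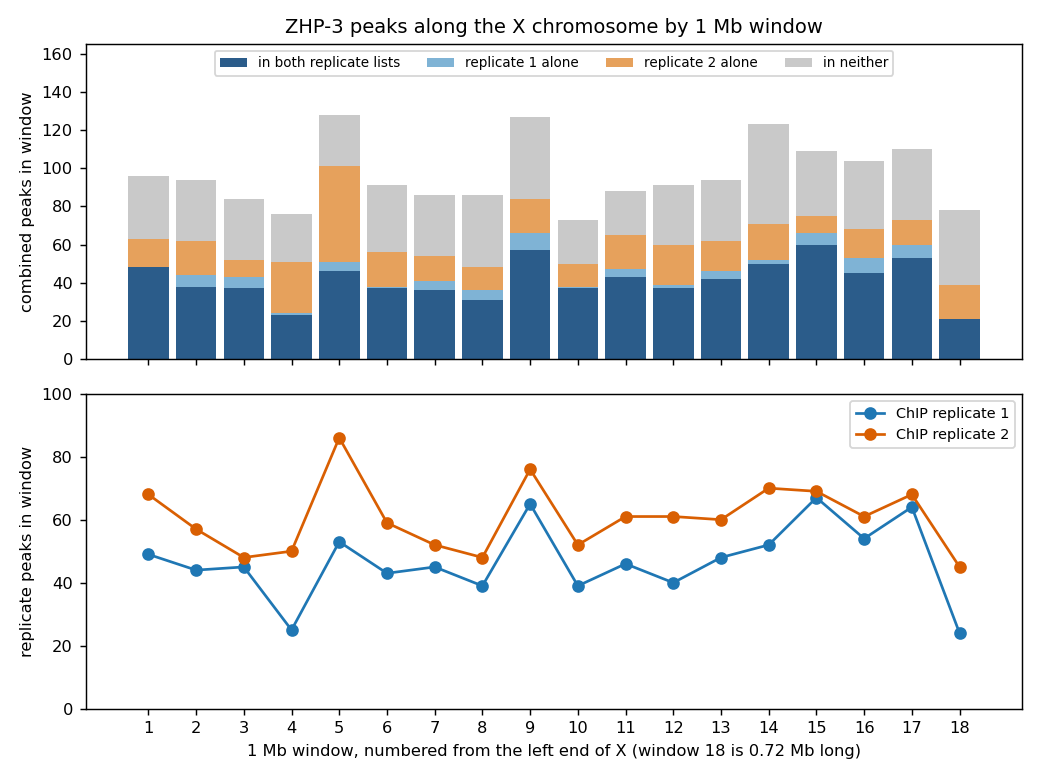
Number of ZHP-3 peaks in 1 Mb windows numbered from the left end of X; the upper panel stacks combined peaks by whether they overlap a peak of either ChIP replicate, and the lower panel plots the peaks of each replicate list. Replicate 2 lies above replicate 1 in 18 of 18 windows, and window 5 holds 50 combined peaks found in replicate 2 alone.

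By count, the window from 14 to 15 Mb held the most strong peaks of the 17 full windows, and the window from 3 to 4 Mb held few. From 14 to 15 Mb, peaks in the upper 25% by score were 41 of 109 in the combined list, 15 of 67 in replicate 1 and 23 of 69 in replicate 2. Each was the highest count, and 55.0% of the combined peaks there were found in both replicates. From 3 to 4 Mb the numbers were 12 of 76, 5 of 25 and 8 of 50. The count of 12 was the lowest in the combined list, and 30.3% of combined peaks there were in both replicates. The order by share was not the same. From 9 to 10 Mb 29 of 73 combined peaks, and from 1 to 2 Mb 13 of 44 replicate 1 peaks, were larger shares than from 14 to 15 Mb. From 3 to 4 Mb the replicate 1 share was near the 19.4% of all X peaks. The window from 4 to 5 Mb held the most peaks but not the strongest. Its median combined score was 12.8, against a median of 13.6 over windows, and 50 of its 128 combined peaks were found in replicate 2 alone. The score is the authors' value from the peak caller, whose scale the files do not name.

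The overlap of replicate 2 with replicate 1 was lowest in the left part of X. With X cut into 3 parts of equal length, 65.1% of replicate 2 peaks in the left part overlapped a replicate 1 peak, 70.1% in the middle and 75.4% in the right part. In the other direction the shares were alike and highest on the left, at 91.7%, 90.04% and 90.9%. Peak density in replicate 1 was 43.0 per Mb on the left, 45.9 in the middle and 53.7 on the right, and in replicate 2 it was 61.1, 58.9 and 64.7. The right part was the densest in all 3 lists, with 107.5 combined peaks per Mb against 94.6 on the left and 92.1 in the middle.

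Chromosome X had more peaks on its outer parts than in its centre, in each list. The log2 ratio of the density on the outer parts to that in the middle part was 0.13 in the combined list, 0.08 in replicate 1 and 0.09 in replicate 2, which makes a mean of 0.08 ± 0.01 over the replicate lists (SD, n = 2). Autosomal ratios were between -0.14 and -0.05 in replicate 1 and between -0.24 and -0.09 in replicate 2, so X alone was above 0 there. In the combined list chromosome I had 0.12 and the other 4 autosomes were below 0. Each of these 3 comparisons gave an exact permutation p of 0.167, the smallest possible. On X itself the excess of the outer parts was mainly that of the right part, since in replicate 1 the left part was sparser than the middle. Among peaks found in both replicates the ratio was 0.08, among those in replicate 2 alone 0.25 and among those in neither 0.18. The 72 peaks found in replicate 1 alone had -0.18.

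Peaks on X were narrower than autosomal peaks in the middle of the width range. The median X width was 309.5 bp in the combined list, 425.5 bp in replicate 1 and 424 bp in replicate 2, which gives 425 ± 1.1 bp over the replicates (SD, n = 2). Every autosome was wider: their medians ran from 320 to 335 bp in the combined list, from 447.5 to 469 bp in replicate 1 and from 431 to 461 bp in replicate 2 (exact permutation p = 0.167 in each list). Peaks of 500 to below 1000 bp were also fewer on X. They were 15.7% of combined X peaks (273 of 1738, Wilson 95% interval 14.1 to 17.5), where 19% of combined peaks on the 6 chromosomes were of that width. They were 23.0% of X peaks in replicate 1 (194 of 842, Wilson 95% interval 20.3 to 26.0), where 30.8% were of that width on the 6 chromosomes, against 28.4% to 34.5% on the autosomes. In replicate 2 they were 25.8% (281 of 1091, 23.2 to 28.4), where the background was 30.1%, against 25.9% to 34.0%, where chromosome V came close to X.

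Wide peaks differed with the limit chosen. Peaks of 1000 bp or more were 5.98% of the combined X peaks, where 7.08% of combined peaks on the 6 chromosomes were as wide and the lowest autosome had 6.67% (exact permutation p = 0.167). They were 7.48% of X peaks in replicate 1 against 8.89% on the 6 chromosomes, and 8.43% in replicate 2 against 8.7%, both inside the autosomal range (exact permutation p = 0.5 and 1). At 2000 bp or more, X had 20 of 842 peaks in replicate 1, or 2.38% (Wilson 95% interval 1.54 to 3.64), where 1.96% were as wide on the 6 chromosomes, against an autosomal mean of 1.89% ± 0.60 (SD, n = 5). In replicate 2 it had 32 of 1091, or 2.93% (2.09 to 4.11), where the background was 2.29%, against 2.16% ± 0.52 (exact permutation p = 0.5 and 0.167). The combined list gave 1.67% on X, where the background was 1.71%.

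**Figure D2:**
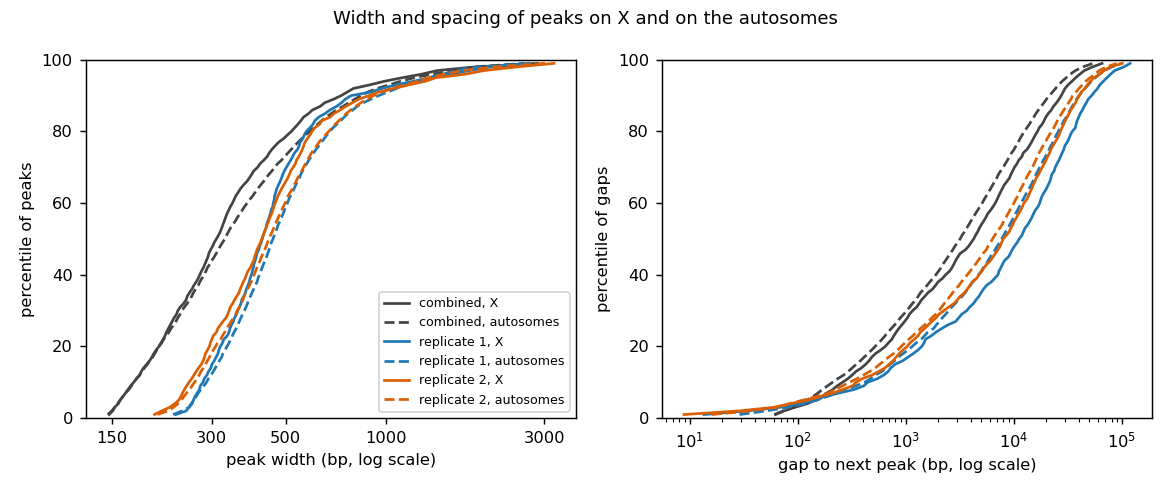
Percentile curves of peak width (left) and of the gap to the next peak (right), both on log axes, for X (solid) and the pooled autosomes (dashed) in each of the 3 lists. The X curves of width lie to the left of the autosomal ones around their middle, with combined medians of 309.5 bp on X, and the X curves of gaps lie to the right over most of their range.

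Strong peaks were fewer on X in both replicate lists. In replicate 1, 163 of 842 X peaks belonged to the upper 25% of the list by score, which is 19.4% (Wilson 95% interval 16.8 to 22.2). The background over the 6 chromosomes is 25% by construction, and the autosomes had 25.02% (I), 27.5% (II), 27.0% (III), 25.8% (IV) and 24.6% (V). In replicate 2, 212 of 1091 X peaks were in the upper 25%, again 19.4% (17.2 to 21.9), against 26.8%, 26.4%, 26.1%, 25.7% and 25.3% in the same order. The replicate mean was 19.4% ± 0.052 (SD, n = 2), and X lay 5.26 and 5.85 percentage points below the lowest autosome (exact permutation p = 0.167 for each, the smallest possible). The combined list did not show it: 436 of 1738 X peaks, or 25.1% (23.1 to 27.2), were in its upper 25%, inside the autosomal range of 22.4% to 26.4% (exact permutation p = 1). Among combined peaks found in both replicates, taken as a list of their own, 19.8% of the X peaks were in the upper 25%, against an autosomal mean of 25.9%.

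Among the 4 score classes compared, the shortfall in the replicate lists was confined to the top class. X held 14.1% of all replicate 1 peaks and 15.6% of all replicate 2 peaks. When each replicate list was cut into 4 classes of equal size by score, X held 14.98%, 14.7% and 15.7% of the lower 3 classes of replicate 1, from weak to strong, and 10.9% of the top class (163 of 1496, Wilson 95% interval 9.42 to 12.6). In replicate 2 the lower classes had 16.6%, 16.9% and 16.7%, and the top class 12.1% (212 of 1751, 10.7 to 13.7). In the combined list the same shares were 13.5%, 14.4%, 16.1% and 14.7%. The lowest 25% by score were 26.6% of X peaks in replicate 1, the highest of the 6 chromosomes, and 26.7% in replicate 2, where chromosome V had 27.8%. In the combined list they were 22.96%, the lowest of the 6 (exact permutation p = 0.167, 0.5 and 0.167 in this order).

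**Figure D3:**
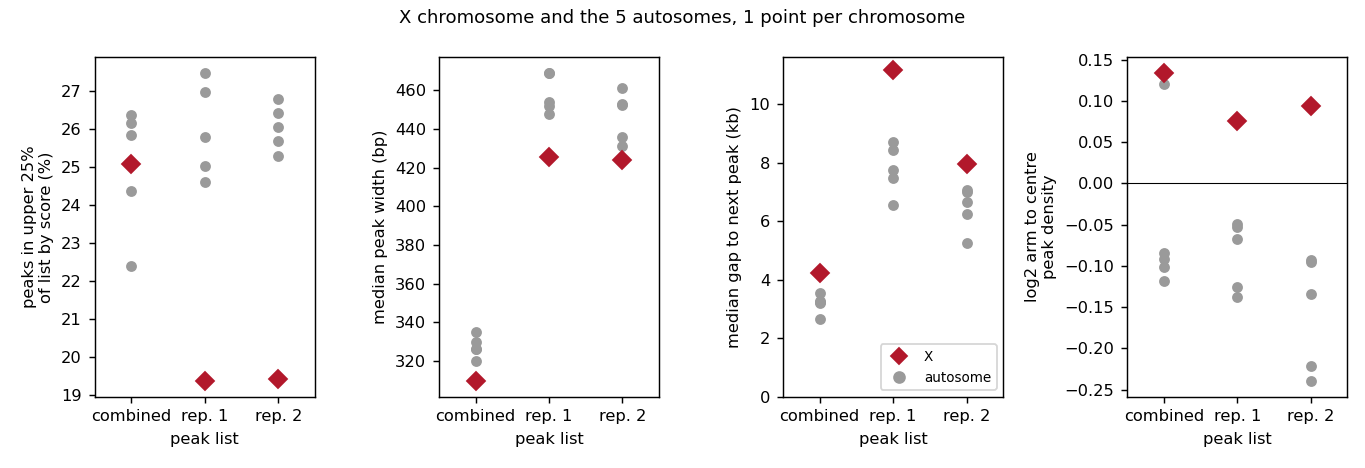
Values of X (diamonds) and of the 5 autosomes (circles), 1 point per chromosome, in the combined list and the 2 replicate lists: share of peaks in the upper 25% of the list by score, median width, median gap and log2 ratio of outer to middle peak density. In both replicate lists X lies outside the autosomal range in all 4 panels, while its share of strong peaks in the combined list, 25.1%, lies within it.

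Very high scores separated the replicates on X. Many replicate peaks are tied at a score of exactly 3100. They were 1.82% of all replicate 1 peaks and 3.03% of all replicate 2 peaks. On X they numbered 6 in replicate 1, or 5.50% of the 109 tied peaks of that list (Wilson 95% interval 2.55 to 11.5), and 34 in replicate 2, or 16.04% of 212 (11.7 to 21.6). X held 14.1% and 15.6% of all peaks of these lists, so the tied peaks of replicate 2 were not fewer on X. All 6 X peaks tied in replicate 1 were tied in replicate 2 as well. They lay from 1503467 to 1505262, from 2057745 to 2063098, from 9605225 to 9607890, from 11605319 to 11606569, from 14361932 to 14363278 and from 16929256 to 16935983 in replicate 1, a set chosen for its scores after these were seen. Of the 38 X peaks at 3100 or above in replicate 2, 25 had a replicate 1 partner between 500 and 3100, 4 had a partner below 500 and 3 had none. These tied peaks were wide, with a median of 2231 bp in replicate 1 and 2009.5 bp in replicate 2 on X, and 33 of the 34 in replicate 2 were at least 1000 bp long.

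Replicate 1 was nearly contained in replicate 2 on X. Of its 842 X peaks, 765 overlapped a replicate 2 peak by at least 1 bp, which is 90.9% (Wilson 95% interval 88.7 to 92.6), where 87.3% did so over the 6 chromosomes. On the autosomes the share ran from 83.8% (V) to 88.7% (IV). In the other direction 767 of 1091 X peaks overlapped, or 70.3% (67.5 to 72.9), where 74.7% did so over the 6 chromosomes, and the autosomes ran from 72.3% (V) to 79.9% (I). X was thus the highest of 6 in the first direction and the lowest in the second (exact permutation p = 0.333 for each). X had 77 replicate 1 peaks without a partner, or 4.35 per Mb, against 6.57 to 10.4 per Mb on the autosomes, and 324 in replicate 2, or 18.3 per Mb, against 15.9 to 22.9. The number of replicate 2 peaks per replicate 1 peak was 1.30 on X and between 1.10 (I) and 1.18 (III) on the autosomes (exact permutation p = 0.167, the smallest possible). Replicate 2 was the longer list on every chromosome, and which property of the libraries goes with this difference was not tested.

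The combined peaks showed the same asymmetry when sorted by overlap with these replicate lists. This is not a separate observation, since 99.8% and 98.5% of the X peaks of replicates 1 and 2 overlapped a combined peak. Of the 1738 combined X peaks, 741 were found in both replicates, or 42.6% (Wilson 95% interval 40.3 to 44.97), close to the 42.4% over the 6 chromosomes. A further 321, or 18.5% (16.7 to 20.4), were found in replicate 2 alone, where the background was 14.2% and the autosomes ran from 11.3% (I) to 14.5% (V) (exact permutation p = 0.167). Those in replicate 1 alone were 72, or 4.14% (3.30 to 5.19), where the background was 6.19% and the lowest autosome had 5.36% (exact permutation p = 0.333). The remaining 604, or 34.8% (32.5 to 37.0), were found in neither replicate list, where the background was 37.2% and the autosomes ran from 36.1% to 38.6% (exact permutation p = 0.167).

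The classes differed in strength and width within X. The median combined score of those in both replicates was 36.4 (quartiles 22.9 and 56.8), and their median width was 426 bp. Peaks in replicate 2 alone had a median score of 11.7 and a width of 322 bp, and those in replicate 1 alone 11.9 and 272.5 bp. For those in neither the medians were 5.41 and 208 bp, and 1 of the 604 reached 1000 bp. The autosomal medians of the first class were 38.6 and 506 bp, and those of the last were 5.19 and 213 bp, close to the X values. Ordered by score, the weakest 434 X peaks included 2 found in both replicates and the strongest 435 included 428. In the upper 50% of the combined list by score, 78.2% of X peaks were found in both replicates, against an autosomal mean of 80.3%. The gradient was thus not particular to X. Width and score went together across X peaks, with a Spearman's rho of 0.65 in the combined list, 0.82 in replicate 1 and 0.87 in replicate 2, given as a description because a caller's score can grow with the length it covers.

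Scores of X peaks went together between the replicates less closely than those of autosomal peaks. Over 713 pairs of X peaks that overlapped one to one, Spearman's rho was 0.71 and Pearson's r of log10 scores was 0.76. The autosomes had rho from 0.78 (V) to 0.81 (III) over 745 to 910 pairs each. Within X, rho was 0.68 on the left, 0.65 in the middle and 0.77 on the right. All of these are descriptions across peaks of the same 2 libraries. Replicate 2 had the higher score in 71.0% of the X pairs, inside the autosomal range of 69.6% to 75.5% (exact permutation p = 0.667). The median ratio of replicate 2 to replicate 1 on X was 1.48 (quartiles 0.95 and 2.18), against medians of 1.32 to 1.45 on the autosomes (exact permutation p = 0.167). Depth is unknown, so a higher score in replicate 2 cannot be read as more ZHP-3.

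Pairs with a very unequal score were commonest on X. A score at least 5 times higher in replicate 2, a limit set after the pairs were seen, occurred in 26 of 713 X pairs, or 3.65% (Wilson 95% interval 2.5005 to 5.29), where 2.32% of pairs on the 6 chromosomes did so, against 1.55% (IV) to 2.60% (V) on the autosomes (exact permutation p = 0.167). In 10 of the 26 the wider peak was at least 1000 bp long, although such wide pairs were 58 of the 713. The autosomes were alike in this, with 32 of 87. Among pairs of 1000 to below 2000 bp the median ratio was 1.60 on X over 45 pairs and 1.29 on the autosomes over 346. At 2000 bp or more it was 1.78 on X over 13 pairs and 1.00 on the autosomes over 73, where many scores are tied at 3100. Among pairs under 500 bp it was 1.17 on X and 1.26 on the autosomes.

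**Figure D4:**
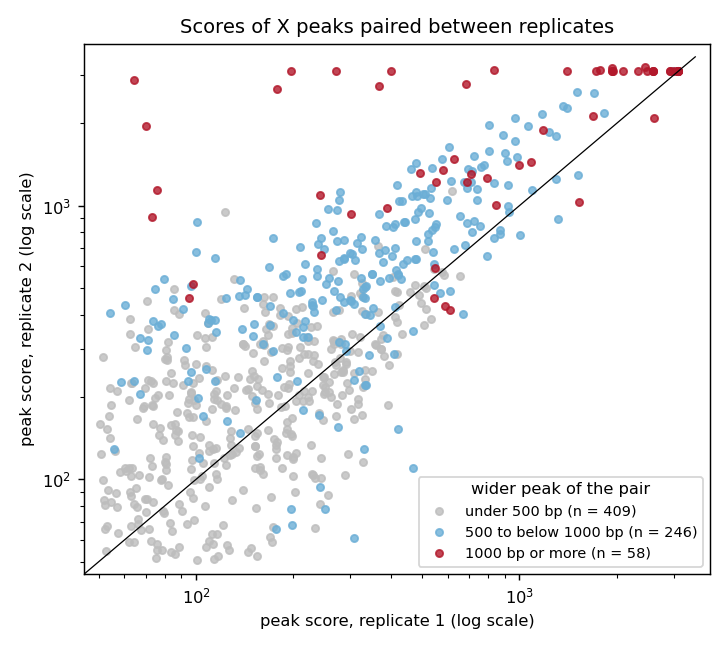
Peak score in replicate 1 against replicate 2, on log axes, for 713 pairs of X peaks that overlap one to one, coloured by the width of the wider peak, with the line of equal scores. Most pairs lie above the line, wide pairs of 1000 bp or more gather at the tied score of 3100, and several wide pairs with low replicate 1 scores lie far above the line.

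The strongest X peak of the combined list ran from 11605159 to 11606502. It had a combined score of 161.4 and a score of 3100 in both replicates, where it was 1251 and 1298 bp wide. The next, from 16286056 to 16286985, scored 156.91, with 1822 in replicate 1 and 2186 in replicate 2. The fourth, from 16850978 to 16852294, scored 148.94 and was split into 2 peaks in replicate 1 but was 1 peak in replicate 2. The lists thus placed peaks at the same strong regions but cut some of them differently.

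Of the 10 X peaks with the highest combined scores, 7 lay in the right part of the chromosome, 2 in the middle and 1 on the left, and all 10 were found in both replicates. The upper 25% by score held 436 X peaks, with 166 on the right, 143 in the middle and 127 on the left. As shares of the combined peaks in each part these were 26.1%, 26.3% and 22.7%, so the right part did not exceed the middle. In replicate 1 the left part had the highest share, 21.7%, and in replicate 2 the right part, 21.2%. Of the 436 combined peaks, 98.4% were found in both replicates, against an autosomal mean of 99.1%, so such overlap was general at high scores. The lowest of the 10 scored 127.68, and their widths spanned 420 to 11006 bp. On the right they included a peak from 12520923 to 12522174 that scored 145.38, with 2916 in replicate 1 and 3100 in replicate 2. A narrow one of 420 bp, from 13995682 to 13996101, scored 144.48 but no more than 986 and 1513 in the replicates. A pair of wide ones lay from 14361904 to 14363247 (131.25, and 3100 in both replicates) and from 14723449 to 14724839 (130.38, with 2584 and 3100). A high combined score therefore did not always go with a score near 3100 in the replicates.

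The highest peak of the left part lay from 516247 to 516960, close to the left end, and scored 143.59, with 1503 in replicate 1 and 2596 in replicate 2. The next windows to the right were led by weaker peaks. The highest from 2 to 3 Mb, at 2242724 to 2243194, scored 91.1, with 722 and 880 in the replicates. The highest from 3 to 4 Mb, at 3106117 to 3106482, scored 99.51, with 273 in replicate 1 and 967 in replicate 2. From 4 to 5 Mb the highest was a 1751 bp peak from 4141962 to 4143712 with 125.43, which scored 1939 and 3100. The lowest leading peak among the 18 windows lay from 6091867 to 6092316, between 6 and 7 Mb, with a score of 90.09.

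In the middle of X, wide peaks led several windows. One from 9605141 to 9607838 was 2698 bp wide, scored 124.3 and reached 3100 in both replicates. One from 7951325 to 7956469 was 5145 bp wide and scored 127.68, with 4 replicate 1 peaks and 5 replicate 2 peaks inside it, the highest of which scored 2586 and 3100. Narrow leaders lay from 8835745 to 8836205 (106.1) and from 10419595 to 10420040 (119.07). Towards the right end the window from 15 to 16 Mb was led by a peak from 15606630 to 15607895 with 127.6, and the last window by one from 17479207 to 17480609 with 106.69, which scored 1951 in replicate 1 and 3100 in replicate 2.

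The widest X peak was a region of 11006 bp from 16929183 to 16940188, with a combined score of 156.61. Replicate 2 divided it into 2 peaks, from 16929234 to 16935984 and from 16936049 to 16940103, both at 3100, and replicate 1 into 4, of which the first, to 16935983, was at 3100. Next came a peak of 5476 bp from 289817 to 295292 with a modest combined score of 36.07. It was found in replicate 2 alone, where it was 5544 bp wide and scored 3100. A peak of 5451 bp from 2057736 to 2063186 was at 3100 in both replicates, with a combined score of 82.42. A peak of 5420 bp from 12663002 to 12668421 scored 70.57, with no more than 836 in replicate 1 and 3120 in replicate 2. Wide X peaks thus included some that both replicates scored alike and some that were high in replicate 2.

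High-scored X peaks without a partner came mostly from replicate 2, as on the other chromosomes. In the upper 25% of each list, replicate 1 had 1 such peak among 163 on X, and replicate 2 had 11 among 212. Over the 6 chromosomes 1.2% of such replicate 1 peaks and 3.71% of such replicate 2 peaks lacked a partner. The replicate 1 peak lay from 4007293 to 4008295, scored 539.73 and held a combined peak of 22.17. The 11 replicate 2 peaks were 513 to 8199 bp wide, 9 of them at least 1000 bp, and 3 were tied at 3100. Besides the one from 289824 to 295367, the tied ones lay from 11785608 to 11787949 and from 11886318 to 11888288, a choice made after the scores were seen. The widest, of 8199 bp from 10360970 to 10369168, scored 955. All 11 overlapped combined peaks, whose top scores ran from 13.51 to 52.2.

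Peaks listed by a single replicate could also be narrow. The highest combined X peak found in replicate 2 alone lay from 2317376 to 2317824 and scored 52.2, with 585 in replicate 2. The highest in replicate 1 alone lay from 1397736 to 1398027 and scored 48.85, with 425 in replicate 1. The highest in neither list lay from 8422018 to 8422237, 220 bp wide, and scored 17.4.

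Runs of closely spaced peaks held a smaller share of the combined peaks on X than over the 6 chromosomes. With a run taken as 10 or more peaks whose gaps did not exceed 1500 bp, there were 2 runs in the combined list, with 22 X peaks or 1.27%, where 2.6% of combined peaks on the 6 chromosomes lay in runs. One ran from 4136279 to 4148260 and held 10 combined peaks with scores from 2.62 to 125.43, 7 replicate 1 peaks and 9 replicate 2 peaks. The other ran from 6735360 to 6750600 and held 12 combined peaks with scores from 1.84 to 83.75, 10 replicate 1 peaks and 11 replicate 2 peaks. Replicate 2 had another run, from 4033106 to 4056404, of 10 peaks that covered 93.9% of 23.3 kb, none scoring above 193.77 and with no replicate 1 peak inside. Replicate 1 had no run on X, nor on I or V, and replicate 2 had none on I or IV, so the replicate lists did not set X apart in this.

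The longest stretch of X without a combined peak was 119699 bp, between a strong peak from 13794733 to 13797591 (score 107.76) and one from 13917291 to 13917650 (51.02). Gaps of 115825 bp and 111556 bp followed, to the right of 3129876 and of 3832514, both in the window from 3 to 4 Mb. None of the 3 held a peak of either replicate. At the left end a peak began at position 1 in all 3 lists and ended at 331, 361 and 354. Its score was 14.17 in the combined list, 123.22 in replicate 1 and 949.76 in replicate 2, which placed it at percentiles 53.3, 32.7 and 85.2 of the lists. At the right end the combined list ended with a peak from 17718601 to 17718889 that neither replicate held, and the last replicate peaks began at 17684650 and 17684639.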

How the data were processed

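The authors deposited 3 lists of peaks, each with start, end and a caller score, whose scale is not named. Per the file headers the build is WormBase WS220, and the source column names MACS for the replicate lists and MACS v2 for the series-level list, called the combined list. BWA and ce10 are named per the submitters' processing notes. How thresholds, controls and pooling were set is not given in the sources used here. Scores were ranked within a list, and compared in value between the replicate lists alone.

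Peaks overlapped if they shared at least 1 bp, and the X count was identical with bedtools 2.31.1. Chromosome lengths were the largest peak end of the 3 lists. Gaps ran from a peak's end to the next start. X was compared with the mean of 5 autosomes by a two-sided exact permutation over 6 chromosomes (smallest p 0.167). Wilson 95% intervals hold for counting error only, with peaks taken as independent. The 3 mitochondrial peaks were left out. Python 3.11.15, numpy 2.4.6, pandas 2.3.3, scipy 1.17.1 and matplotlib 3.10.9 were used. Functions for overlap, pairs, outer to middle ratio, runs and permutation were tested on simulated data, but peaks per Mb were not.

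Named X peaks were the 10 highest by combined score, the 5 widest, the highest of each of 3 parts and each 1 Mb window, the first and last, those beside the 3 longest gaps, the highest of each overlap class, the highest of each replicate list without a partner, and runs; the text gives most of these. The region, tests and rules were chosen with earlier results of these data known. Positions in genes and sequences are not used here, because the gene table was of another build.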

Additional observations from a re-analysis of the deposited data

How the results depend on the processing

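Of 61 alternatives with an autosomal value, 52 kept the direction of X against the autosomes. No p could pass 0.05, so keeping a side of the threshold says nothing about stability. The directions of density (ratio 0.75 to 0.86), width, gap, arm ratio (0.03 to 0.19 on the log2 scale) and both replicate overlaps held under every alternative run for them. Direction here is against the autosomal mean, and X was not always the chromosome furthest from the rest. With the upper 25% of combined peaks by score the exact permutation p was 0.667 for the arm ratio. It was also 0.667 for density with the upper 50% and with the upper 25%. The share found in both replicates was above the autosomal mean by 0.24 percentage points and turned below it with the upper 50% of scores (78.2%), the upper 25% (98.4%) and outside dense runs (42.5%). The share found in neither turned with the upper 50% (2.63%); counted against 1 replicate list it was 38.9% without replicate 1 and 53.2% without replicate 2, where it lay above the autosomes. The median score percentile, 51.8 in the combined list, fell below the autosomal mean among peaks found in both replicates (47.6), and was 46.9 without replicate 1 and 48.5 without replicate 2. For the scores of pairs Pearson's r was 0.76, above the rho of 0.71. The share of strong X peaks, singled out after the data were seen, kept its direction at the upper 10% (6.89% in replicate 1, 7.79% in replicate 2) and the upper 50% (47.3% and 46.2%) and outside runs, and turned in the combined list (25.1%). The cause of these turns was not tested. Without replicate 1 or 2, values are those of the remaining list: density ratio 0.76 to 0.86, width 424 to 425.5 bp, gap 7950.5 to 11184 bp, arm ratio 0.08 to 0.09. No paired analysis was possible because the ChIP replicate numbers recur among the inputs alone, and inputs have no peak list here. Positions in genes were not run. With depth unknown, absence from a list may mean only that a site fell short of the caller's threshold.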

Other observations

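The X pairs with the most unequal scores, picked after the scores were seen, were wide and high in replicate 2. A peak from 14907993 to 14909422 scored 64.33 in replicate 1 and 2891 in replicate 2, a ratio of 44.9, although its boundaries differed by at most 26 bp between the lists. A peak from 7077437 to 7079263 scored 69.78 and 1956, and one from 1752231 to 1755140 scored 196.64 and 3100. In the other direction the most unequal pair, near 2568291, scored 307.08 in replicate 1 and 60.99 in replicate 2, where it was 227 bp wide against 610 bp. On X, 1 pair had a score at least 5 times higher in replicate 1, against 26 in replicate 2. The autosomes had 20 against 87.

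By the median ratio, replicate peaks on X were wider than their matched combined peaks, more so than on the pooled autosomes, with no test made. Over 767 X pairs of a combined and a replicate 1 peak that overlapped one to one, the replicate peak was 1.06 times as wide at the median, against 1.01 over 4577 autosomal pairs. For replicate 2 the ratios were 1.06 over 988 X pairs and 1.01 over 5154 autosomal pairs. The matched combined peaks were narrower on X, with medians of 397 and 378.5 bp, against 457 and 439 bp on the autosomes. Between replicates 1 and 2 the median width ratio of one-to-one pairs was 1.017 on X and 1.005 on the autosomes.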
